A study of Mus musculus with 6 samples.

Results

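The 38 genes described here are antioxidant genes, regulators and targets of the transcription factor NRF2 and subunits of NADPH oxidases, measured by RNA sequencing in sorted mouse brain astrocytes. They were chosen by name from the deposited table of 45777 mm10 genes, and 37 of them had at least 1 read count in all 6 samples. They fall into regulators (2 genes), induced redox enzymes (3), glutathione synthesis and recycling (5), glutathione transferases (6), glutathione peroxidases (4), the thioredoxin system (5), peroxiredoxins (6), superoxide dismutases with catalase (4) and NADPH oxidase subunits (3). Nox4, a constitutively active NADPH oxidase, was the gene left out of the tests. It had 0, 0 and 9 counts in the vehicle samples and 21, 16 and 10 counts in the streptozotocin (STZ) samples, and its TPM did not exceed 0.121 in any sample.

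NRF2 is a transcription factor that is held in the cytoplasm and sent for degradation by KEAP1 until oxidants or electrophiles modify KEAP1's cysteines. It then enters the nucleus, pairs with a small MAF protein and binds antioxidant response elements, which switch on enzymes that make and use glutathione, reduce thioredoxin and supply NADPH. In the brain, astrocytes are the main site of NRF2 activity and export glutathione precursors to neurons.

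Both groups were 8-week-old male mice with an Aldh1l1-CreERT2 transgene and the Cre reporter tdTomato fl/fl, although the sample labels give the genotype only as WT. All received tamoxifen at 75 mg/kg for 5 days, which turned on the red protein tdTomato in cells using the Aldh1l1 promoter. The STZ group then received a single dose of 150 mg/kg STZ, a toxin of pancreatic beta cells, and only animals whose blood glucose had risen past the study's limit were kept, while the vehicle group received citrate buffer. Cells positive for tdTomato were sorted from dissociated brain 21 days later, and each of the 3 samples of a group was a pool of cells from 3 mice. The marker genes of astrocytes, 7 of 7, had counts in every sample, with a summed level of 12204 to 14983 TPM. A sorted pool still contained RNA of other cells. The 7 choroid plexus markers summed to 10496 TPM in vehicle replicate 1 and to 15823 to 29611 TPM in the other samples, and neutrophil, endothelial and microglial markers were also present. Total counts were 52529048 to 58749115 per sample, so counting error was small for every member except Nox4. In these bulk samples fewer cells of a type and less RNA per cell cannot be told apart.

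Levels are given as the deposited TPM, which correct for transcript length and can be compared between genes. Comparisons of single genes between samples are given in the text as CPM, read counts scaled by library size and TMM factors, which are not comparable between genes. Sums over several genes are compared between samples in deposited TPM, to which no TMM factors were applied. The tests were edgeR's quasi-likelihood test and, as the alternative, DESeq2, both on counts of all 22337 genes with a count in every sample. The edgeR p-values were adjusted over all of them. DESeq2 adjusted over the genes that passed its default filters, so some genes had no adjusted p there. A gene was called at an adjusted p under 0.05 with a fold change over 1.5.

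The antioxidant genes were transcribed at levels that ranged from a mean of 2632 TPM to 10.1 TPM among the 37 genes, and a few thiol enzymes held most of the transcripts. Gstm1 and Gstm5, glutathione transferases of the mu class, averaged 2632 ± 309 and 2241 ± 263 TPM (SD over 6 samples), and Prdx6, a peroxiredoxin that also reduces phospholipid hydroperoxides, averaged 2076 ± 156 TPM. Those 3 genes made up 54.6% of the summed TPM of the 38 genes. Their ranges overlapped, so their order among themselves was not resolved. Prdx1, a cytosolic peroxiredoxin, followed at 1133 ± 94.3 TPM, below every sample of Prdx6, and Gpx4, the peroxidase that clears lipid hydroperoxides from membranes, at 888 ± 146 TPM. At the low end stood Hmox1, which breaks down heme, at 18.4 ± 3.48 TPM, Cybb, the catalytic subunit of the phagocyte NADPH oxidase, at 17.6 ± 8.55 TPM, and Sesn2, a stress-induced sestrin, at 10.1 ± 1.27 TPM. Among the 37 steps between neighbours in this order, the ranges over samples overlapped in 32 and were separate in 5.

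**Figure D1:**
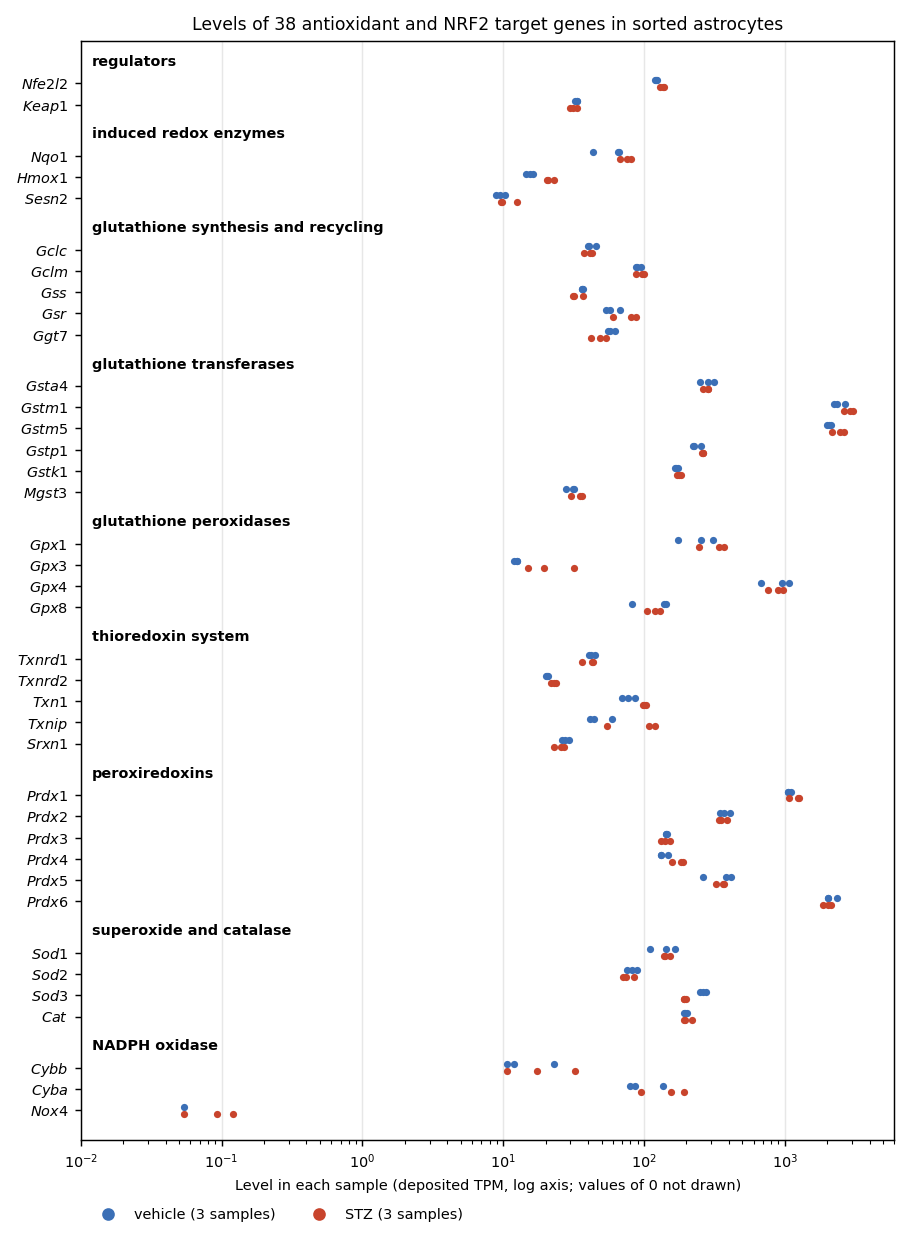
Deposited TPM of each of the 38 genes (log axis), grouped by role, with 1 point for each of the 3 vehicle (blue) and 3 STZ (red) samples and values of 0 not drawn. Gstm1, Gstm5 and Prdx6 lie furthest to the right, with means of 2632, 2241 and 2076 TPM, and Nox4 does not exceed 0.121 TPM.

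The summed level of the 38 genes was 12175, 12389 and 12068 TPM in vehicle replicates 1 to 3 and 13289, 13615 and 12801 TPM in STZ replicates 1 to 3, which is 1.21% to 1.36% of all TPM. The groups did not overlap in this sum, and the STZ samples were higher. Without Gstm1 and Gstm5 the sums were 7409, 7990.3 and 7846 TPM in the vehicle and 7780.0, 8063 and 8010.3 TPM in the STZ samples, and the groups overlapped.

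Promoter sequences were searched for the core of the antioxidant response element, the letters TGACNNNGC on either strand. RefSeq (GRCm38.p6) windows of 300 bases, from 250 before to 50 after a transcription start, were present for 32 of the 38 genes, and for none of Gsta4, Gclc, Prdx6, Sod3, Gsr and Hmox1. The core was present in 8 of the 32 (25%), against 14% of the 27025 genes with a window. The 8 stretches are printed to show which genes carry the letters and where, with the core in capitals and read on the strand of the gene. In Srxn1, Gclm, Prdx1, Txnrd1 and Sod1 the core lies on the opposite strand and reads GCNNNGTCA.
Nfe2l2, chr2:75704885-75704913, minus strand: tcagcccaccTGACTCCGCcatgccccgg
Srxn1, chr2:152105542-152105570, plus strand: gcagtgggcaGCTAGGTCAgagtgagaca
Gstm5, chr3:107895802-107895830, plus strand: caccgcccacTGACCACGCggagggcggg
Gclm, chr3:122245413-122245441, plus strand: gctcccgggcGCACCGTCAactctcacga
Prdx1, chr4:116685456-116685484, plus strand: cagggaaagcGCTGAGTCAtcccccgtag
Sesn2, chr4:132510474-132510502, minus strand: cgcagcgggcTGACAGAGCcgggcgagcg
Txnrd1, chr10:82859104-82859132, plus strand: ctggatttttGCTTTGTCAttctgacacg
Sod1, chr16:90220696-90220724, plus strand: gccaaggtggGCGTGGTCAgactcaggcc
The fitted log2 fold changes (STZ over vehicle) of these 8 genes ranged from -0.14 to 0.23 with a median of 0.09, above 0 in 6 and below 0 in 2. The window is short, and antioxidant response elements can lie further from the start.

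The comparison of STZ with vehicle samples asks whether STZ treatment, which raised blood glucose, goes with a change in this system. Raised glucose, STZ itself and the loss of body weight that the paper reports cannot be told apart in this design. None of the 37 genes was called by both tools. Because edgeR called only 5 of 22337 genes, 0 of 37 calls in edgeR cannot tell change from no change. edgeR called 0 of the 37 genes (0.0224% of all genes tested were called, 5 of 22337), and DESeq2 called 2 of 37, Txnip and Gpx3, both higher in STZ samples (1.05% of all genes, 234 of 22337). At an unadjusted edgeR p under 0.05 there were 9 of 37 genes, 24.3%, against 11.3% of all genes, with 7 higher and 2 lower in STZ samples. The groups did not overlap in CPM for 12 of 37 genes, 32.4%, against 18.5% of all genes. In 10 of these 12 the STZ samples were higher and in 2 lower, while of all 4129 such genes 1929 were higher and 2200 lower. The median log2 fold change over the 37 genes was 0.05, beside 0.01 over all genes tested, with 22 above 0 and 15 below. Vehicle replicate 2 decided part of that median, which was 0.11 without it.

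**Figure D2:**
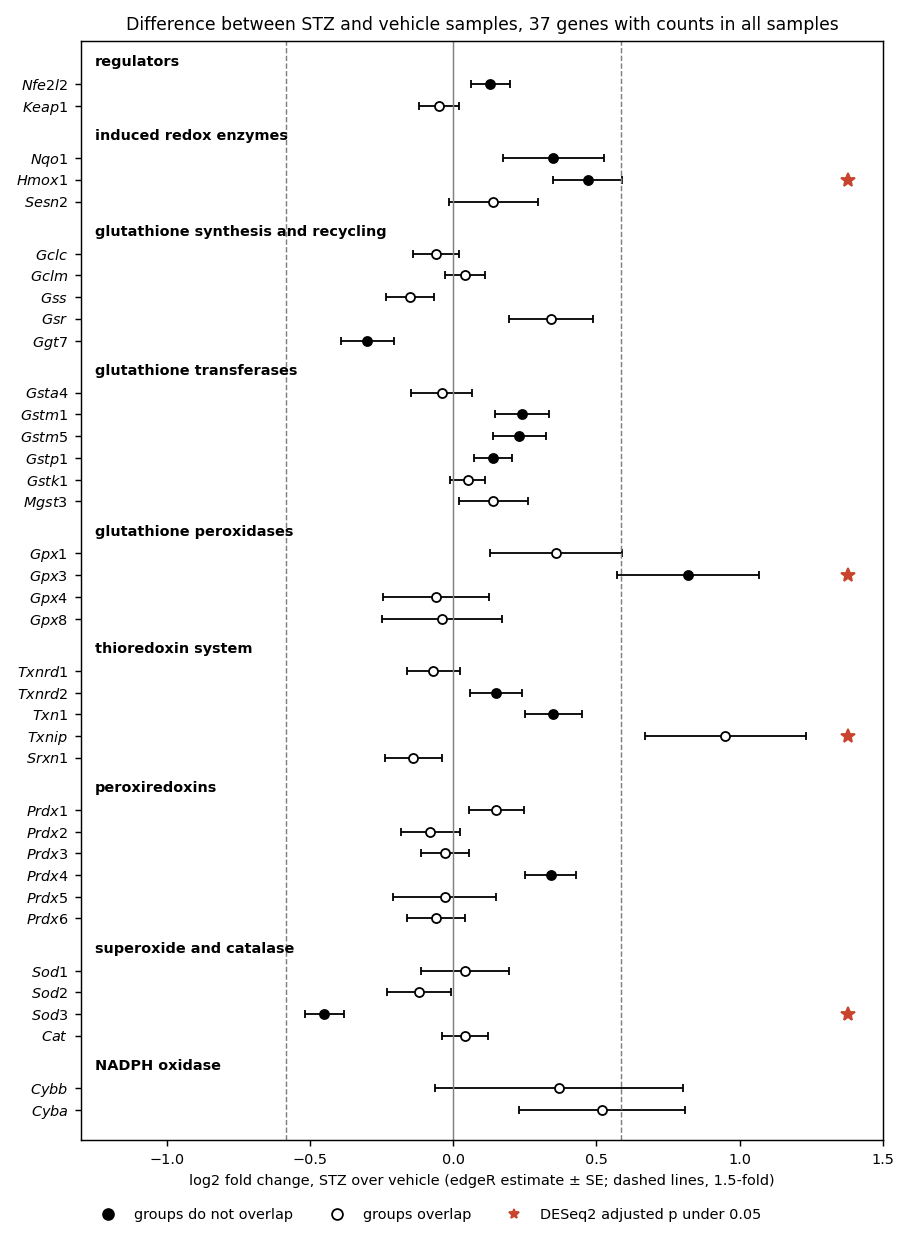
Log2 fold change of STZ over vehicle for the 37 genes, as fitted by edgeR with a standard error derived from its F statistic, grouped by role. Filled points mark groups that do not overlap, stars mark a DESeq2 adjusted p under 0.05, and dashed lines mark 1.5-fold. Txnip (0.95) and Gpx3 (0.82) lie beyond 1.5-fold, Sod3 (-0.45) is the lowest, and the 37 genes have a median of 0.05.

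Vehicle replicate 1 stood apart within the antioxidant genes. It was the lowest of the 6 samples for 18 of 37 genes (48.6%), against 25.6% of all genes tested, and it was the lowest for Nqo1, Gpx1, Gpx4, Gpx8, Prdx5 and Sod1 by a clear margin. Gpx4, for example, was 248 CPM there and 283 to 404 CPM in the other samples, and Prdx5, a peroxiredoxin of mitochondria, peroxisomes and cytosol, was 149 CPM there and 188 to 247 CPM elsewhere. The same sample had the lowest summed choroid plexus, endothelial, ependymal, neutrophil, pericyte and smooth muscle, and fibroblast markers. Its summed astrocyte (14983 TPM), microglial (1382 TPM) and border macrophage (52.5 TPM) markers were the highest. The choroid plexus sum was mostly Ttr, with a mean of 21056 TPM. By gene in CPM, Ttr, Folr1 and Kcne2 were lowest in vehicle replicate 1, and Kl, Clic6, Aqp1 and Otx2 in STZ replicate 2. The part of these cell types in the low values was not tested.

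Neither regulator passed the threshold in either tool. Nfe2l2, which encodes NRF2 (chr2:75675513-75704663), was 137, 141 and 140.1 CPM in vehicle replicates 1 to 3 and 143, 155 and 160.1 CPM in STZ replicates 1 to 3. The groups did not overlap, and all 3 STZ samples were above the vehicle samples by a small margin. The log2 fold change was 0.13 ± 0.0695 (SE; edgeR adjusted p = 0.517). Keap1, the adaptor that directs NRF2 to degradation (chr9:21229730-21239332), was 58.3, 62.9 and 63.3 CPM in the vehicle and 62.0, 57.1 and 59.4 CPM in the STZ samples. These values overlapped, with a log2 fold change of -0.05 ± 0.0696 (edgeR adjusted p = 0.833).

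The 3 induced redox enzymes had fitted fold changes above 0. Nqo1, the quinone reductase most often read as an NRF2 target (chr8:107388225-107403205), was 30.1, 47.6 and 48.0 CPM in the vehicle and 56.9, 48.3 and 54.8 CPM in the STZ samples. The groups were separate by the small gap between vehicle replicate 3 and STZ replicate 2, and vehicle replicate 1 was far below the other 5 samples. The log2 fold change was 0.35 ± 0.176 (edgeR adjusted p = 0.502), and it was 0.15 without vehicle replicate 1. Hmox1, heme oxygenase 1 (chr8:75093618-75100593), was 10.2, 11.3 and 12.1 CPM in the vehicle and 14.6, 16.5 and 15.3 CPM in the STZ samples. Every STZ sample was higher than every vehicle sample, with a narrow spread within groups (SD 0.963 and 0.974, n = 3 each). Its log2 fold change of 0.47 ± 0.12 had an edgeR adjusted p of 0.288 and a DESeq2 adjusted p of 0.0454, the latter with a fold under 1.5, and the DESeq2 adjusted p was 0.0596 to 0.25 with each sample left out in turn, except vehicle replicate 3 (0.0221). Sesn2, sestrin 2, ranged from 10.6 to 15.5 CPM with overlapping groups and a log2 fold change of 0.14.

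Of the 5 genes of glutathione synthesis and recycling, 2 had a fold change above 0 and 3 below (median log2 -0.06, and 0.0014 without STZ replicate 2), and none passed the threshold. Its rate-limiting enzyme consists of a catalytic subunit, Gclc, and a modifier subunit, Gclm, whose log2 fold changes were -0.06 ± 0.0796 and 0.04 ± 0.0698, and Gss, glutathione synthetase, which completes the tripeptide, had -0.15 ± 0.0835. All 3 overlapped between the groups, with edgeR adjusted p-values of 0.829, 0.846 and 0.529. Gsr, the reductase that regenerates glutathione with NADPH, was 68.7, 66.8 and 85.3 CPM in the vehicle and 106, 98.5 and 75.3 CPM in the STZ samples, with STZ replicate 3 below vehicle replicate 3, and its log2 fold change was 0.34 ± 0.147 (edgeR adjusted p = 0.445). Ggt7, a member of the gamma-glutamyltransferase family (chr2:155490379-155514891), was 74.5, 68.8 and 71.3 CPM in the vehicle and 57.6, 64.8 and 52 CPM in the STZ samples. The STZ samples were all lower, and the log2 fold change was -0.30 ± 0.0916 (edgeR adjusted p = 0.328).

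Glutathione transferases, which couple glutathione to electrophiles, held the most abundant transcripts, and 5 of the 6 had a fold change above 0 (median log2 0.14). Gstm1 (chr3:108012250-108017973) was 1547, 1414 and 1372 CPM in the vehicle and 1778, 1731 and 1617 CPM in the STZ samples. The STZ samples were all higher, with a log2 fold change of 0.24 ± 0.0927 (edgeR adjusted p = 0.402). Gstm5 (chr3:107895854-107898685), whose promoter stretch is printed above, was 863, 873 and 859 CPM in the vehicle and 1019, 1105 and 914 CPM in the STZ samples. The vehicle samples lay close together (SD 7.2 CPM) and the STZ samples were all above them, with a log2 fold change of 0.23 ± 0.0926 (edgeR adjusted p = 0.425). Gstp1, the pi class enzyme (chr19:4035411-4037912), was 84.9, 77.8 and 78.2 CPM in the vehicle and 87.8, 87.5 and 90.6 CPM in the STZ samples. The groups were separate by a small gap, with a log2 fold change of 0.14 ± 0.066 (edgeR adjusted p = 0.471). Gsta4, which acts on lipid aldehydes, Gstk1, the kappa class enzyme of mitochondria and peroxisomes, and Mgst3, a membrane-bound transferase, overlapped between groups with log2 fold changes of -0.04, 0.05 and 0.14. The Gstm genes lie in one cluster of related sequences, and reads of Gstp1 may be shared with its near copy Gstp2 (52.5 TPM), so the split of counts between such copies is uncertain.

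Among the genes of the glutathione peroxidase family, which reduce peroxides, Gpx3 had the largest fold change. Gpx3, the secreted form (chr11:54902854-54910387), was 8.56, 8.90 and 8.68 CPM in the vehicle and 21.7, 13.7 and 10.6 CPM in the STZ samples. The 3 vehicle samples were nearly equal, whereas the STZ samples spread from just above them to far higher. The log2 fold change was 0.82 ± 0.249, with an edgeR adjusted p of 0.328 and a DESeq2 adjusted p of 0.0413. Leaving out STZ replicate 1 lowered the log2 fold change to 0.48 and raised the DESeq2 adjusted p to 0.242. The DESeq2 call was lost when any sample but STZ replicate 3 was left out. Endothelial markers followed the same order among the STZ samples, with a summed level of 471, 342 and 245 TPM, against 68.2, 99.0 and 236 TPM in the vehicle samples. The order was not particular to them. Summed pericyte and smooth muscle, ependymal, border macrophage and neuron markers had it too. All 8 endothelial markers had a fold change above 0 (median log2 1.18) and none was at 0 in all samples. The part of these cell types in the Gpx3 difference was not tested.

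The other peroxidases overlapped between the groups. Gpx1, the cytosolic form, was 81.9, 123 and 152 CPM in the vehicle and 159, 178 and 120.2 CPM in the STZ samples, with a log2 fold change of 0.36 ± 0.23 (edgeR adjusted p = 0.583) and 0.15 without vehicle replicate 1. Gpx4 and Gpx8, an endoplasmic reticulum peroxidase, had log2 fold changes of -0.06 and -0.04 with standard errors of 0.184 and 0.21. Reads of Gpx4 may be shared with its pseudogene copy Gpx4-ps2 (139 TPM).

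The thioredoxin system contained the largest fold change of the 37 genes. Txnip encodes the thioredoxin-interacting protein, an arrestin-like protein that binds and inhibits thioredoxin and lowers glucose uptake, and its transcription is known to respond to glucose. It lies at chr3:96557957-96561857 and was 55.1, 53.4 and 77.9 CPM in vehicle replicates 1 to 3 and 150.1, 139 and 71.0 CPM in STZ replicates 1 to 3. STZ replicates 1 and 2 were far above every vehicle sample, whereas STZ replicate 3 lay below vehicle replicate 3, so the groups overlapped. The log2 fold change was 0.95 ± 0.281, with an edgeR adjusted p of 0.318 and a DESeq2 adjusted p of 0.0121. Without STZ replicate 3 the log2 fold change fitted by DESeq2 was 1.21, and the DESeq2 adjusted p was 5.59e-08. The DESeq2 call was lost without STZ replicate 1 (adjusted p = 0.242), STZ replicate 2 (0.254), vehicle replicate 1 (0.355) or vehicle replicate 2 (0.183), and was kept without vehicle replicate 3 (0.00509).

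Markers of several other cell types moved with Txnip across the samples, and those of others did not. The 7 neutrophil markers, all with a fold change above 0, summed to 482, 486 and 2729 TPM in the vehicle and 3450.1, 3788 and 1633 TPM in the STZ samples, so that vehicle replicate 3 was the highest of its group and STZ replicate 3 the lowest of its group, as for Txnip. None of these markers was at 0 in all samples. The endothelial sum, given above, and the ependymal, pericyte and smooth muscle, and fibroblast sums had the same highest vehicle and lowest STZ replicate. Except for fibroblasts, these sums were highest in STZ replicate 1, as Txnip was. Oligodendrocyte and neuron sums were also highest there. By contrast, the choroid plexus sum was highest among the STZ samples in replicate 3 (26707 TPM). Microglial and border macrophage sums were highest in vehicle replicate 1 (1382 and 52.5 TPM). Gsr, of the glutathione genes, had the same highest vehicle and lowest STZ replicate as Txnip. The part of these cells in the Txnip values was not tested.

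The bases before the Txnip start are printed because glucose-sensing factors of the MondoA and ChREBP type bind paired copies of CACGNG, and this window holds such a pair. The 250 bases before the start (chr3:96557707-96557956, plus strand) carry 2 copies of CACGAG, in capitals, separated by 5 bases, between positions -85 and -69 from the start.
Txnip promoter: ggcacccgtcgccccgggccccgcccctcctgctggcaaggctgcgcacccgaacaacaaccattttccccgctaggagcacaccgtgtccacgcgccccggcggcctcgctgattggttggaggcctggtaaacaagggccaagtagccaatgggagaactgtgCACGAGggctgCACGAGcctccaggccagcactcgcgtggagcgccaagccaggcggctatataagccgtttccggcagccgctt
The E-box CACGTG, itself a form of CACGNG, was absent from the Txnip window. Of the 32 antioxidant genes with a window, 1 held it (3.12%), Prdx4, against 8.09% of all genes. Pairs of CACGNG 5 bases apart, on either strand and in the same orientation, were found in the windows of 15 of 27025 genes (0.0555%), and Txnip was the only 1 of the 32 antioxidant genes with a window to have one. This motif was chosen after the values of Txnip were seen. Of those 15 genes 12 were tested, and their log2 fold changes ranged from -0.39 to 0.95 with a median of -0.06 and 5 above 0. Arrdc4, a related arrestin gene that also responds to glucose, had a log2 fold change of 0.11 ± 0.17 with overlapping groups (edgeR adjusted p = 0.84); it was singled out after its value was seen.

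Txn1, cytosolic thioredoxin itself (chr4:57943373-57956411), was 33.1, 37.6 and 42.7 CPM in the vehicle and 46.9, 50.1 and 47.9 CPM in the STZ samples. The STZ samples were close together and all higher, with a log2 fold change of 0.35 ± 0.101 (edgeR adjusted p = 0.308). Txnrd2, the mitochondrial thioredoxin reductase (chr16:18426417-18479073), was 17.4, 18.4 and 18.0 CPM in the vehicle and 19.7, 19.1 and 21.2 CPM in the STZ samples. The groups were separate by a small gap, with a log2 fold change of 0.15 ± 0.0913 (edgeR adjusted p = 0.553). Txnrd1, the cytosolic reductase, and Srxn1, sulfiredoxin, which repairs overoxidised peroxiredoxins, both carry the core printed above and had log2 fold changes of -0.07 ± 0.0921 and -0.14 ± 0.1 with overlapping groups.

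**Figure D3:**
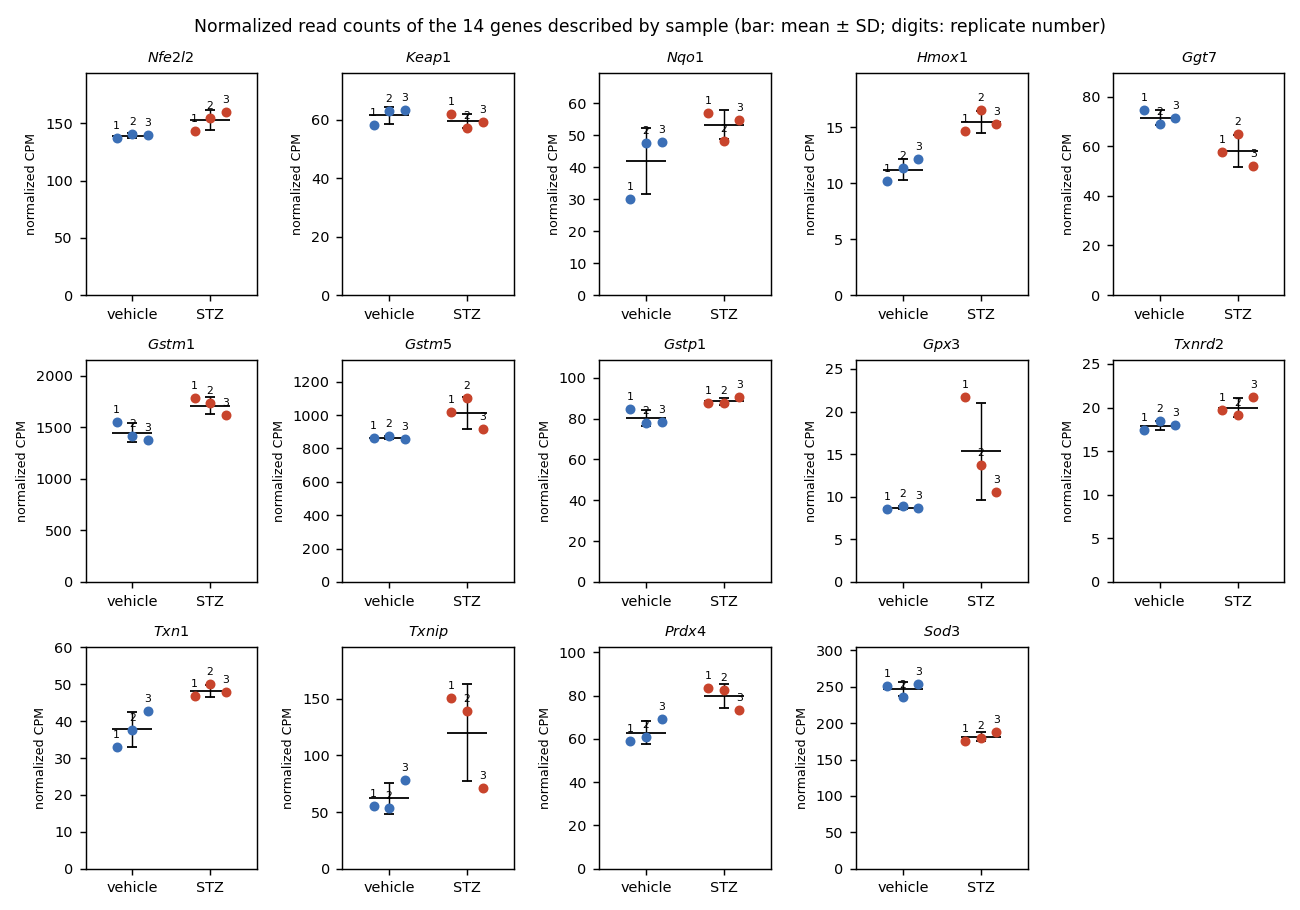
TMM-normalised CPM of 14 genes in each sample, with the replicate number beside each point and bars at the group mean ± SD (n = 3). Sod3 and Hmox1 show narrow groups that do not overlap, Gpx3 and Txnip a wide STZ group, and Keap1 overlapping groups.

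The peroxiredoxins, which reduce peroxides, most of them with electrons from thioredoxin and Prdx6 with glutathione, had fold changes above 0 in 2 genes and below 0 in 4 (median log2 -0.03). With single samples left out that median ran from -0.093 (without STZ replicate 3) to 0.038 (without vehicle replicate 2), and it was above 0 without STZ replicate 1, STZ replicate 2, vehicle replicate 2 or vehicle replicate 3. Prdx4, the form of the endoplasmic reticulum (chrX:155323918-155342272), was 58.9, 60.9 and 69.0 CPM in the vehicle and 83.5, 82.5 and 73.4 CPM in the STZ samples. All STZ samples were higher, with a log2 fold change of 0.34 ± 0.0885 (edgeR adjusted p = 0.289; DESeq2 adjusted p = 0.0999). Prdx1 and Prdx2, both cytosolic, Prdx3 of the mitochondria, Prdx5 and Prdx6 overlapped between the groups, with log2 fold changes of 0.15, -0.08, -0.03, -0.03 and -0.06. In summed TPM the 6 genes ranged from 3989 to 4373 over the samples, again with overlapping groups.

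The smallest p-value of the 37 genes belonged to Sod3, the secreted superoxide dismutase that acts outside cells (chr5:52363804-52369738). It was 251, 236 and 254 CPM in the vehicle and 176, 179.5 and 188 CPM in the STZ samples. All STZ samples were lower by a gap several times the spread within groups (SD 9.81 and 6.27, n = 3 each). The log2 fold change was -0.45 ± 0.0682, a fold of 0.733 (edgeR adjusted p = 0.163; DESeq2 adjusted p = 0.000398). The DESeq2 adjusted p stayed under 0.05 with each sample left out in turn (1.27e-05 to 0.00379), but the fold did not reach 1.5, so neither tool called it. Of the 7 astrocyte markers 5 had a fold change below 0. The lowest was Aqp4, the astrocyte water channel, at 1325, 1071 and 1163 CPM in the vehicle and 754, 916 and 884 CPM in the STZ samples (log2 fold change -0.48 ± 0.116). The others were nearer to no change, with log2 fold changes of -0.26 for Gja1, -0.22 for Aldh1l1, -0.11 for Slc1a2, -0.10 for Slc1a3, 0.00 for Gfap and 0.16 for Aldoc. The summed astrocyte markers overlapped between the groups, at 12352 to 14983 TPM in the vehicle and 12204 to 13648 TPM in the STZ samples. None of these markers was at 0 in all samples, and their part in the Sod3 difference was not tested.

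The other superoxide enzymes overlapped between the groups. Sod1, the cytosolic copper-zinc dismutase, Sod2, the mitochondrial manganese dismutase, and Cat, catalase, which splits hydrogen peroxide, had log2 fold changes of 0.04 ± 0.154, -0.12 ± 0.112 and 0.04 ± 0.08. Their edgeR adjusted p-values were 0.951, 0.721 and 0.881.

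NADPH oxidases produce superoxide rather than remove it. Cybb, the catalytic subunit NOX2 (chrX:9435252-9487766), was 25.4, 23.6 and 51.9 CPM in the vehicle and 37, 69.8 and 23.7 CPM in the STZ samples. Cyba, its membrane partner p22phox (chr8:122424771-122432940), was 29.3, 28.0 and 49.3 CPM in the vehicle and 52.9, 66.1 and 33.8 CPM in the STZ samples. In both genes vehicle replicate 3 and STZ replicate 2 were high and STZ replicate 3 was low, and the groups overlapped. The log2 fold changes were 0.37 ± 0.433 and 0.52 ± 0.289 (edgeR adjusted p = 0.782 and 0.534), and without STZ replicate 2 they were -0.15 for Cybb and 0.29 for Cyba. Leaving out vehicle replicate 3, the log2 fold change of Cyba in edgeR was 0.82 and DESeq2 called Cyba, which it did not with all samples (adjusted p = 0.383). Ncf1, a cytosolic subunit of the same phagocyte enzyme, followed a similar course, at 17.7, 11.5 and 26.4 CPM in the vehicle and 27.9, 39.6 and 20.6 CPM in the STZ samples. The summed neutrophil markers given above were likewise highest in STZ replicate 2 and, within the vehicle group, in replicate 3, while the 9 microglial markers, at 1382, 946 and 992 TPM in the vehicle and 1072, 1297 and 933 TPM in the STZ samples, were highest in vehicle replicate 1. Among the STZ samples the microglial sum, like the oxidase genes, was highest in replicate 2 and lowest in replicate 3. The part of these cells in the oxidase values was not tested.

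**Figure D4:**
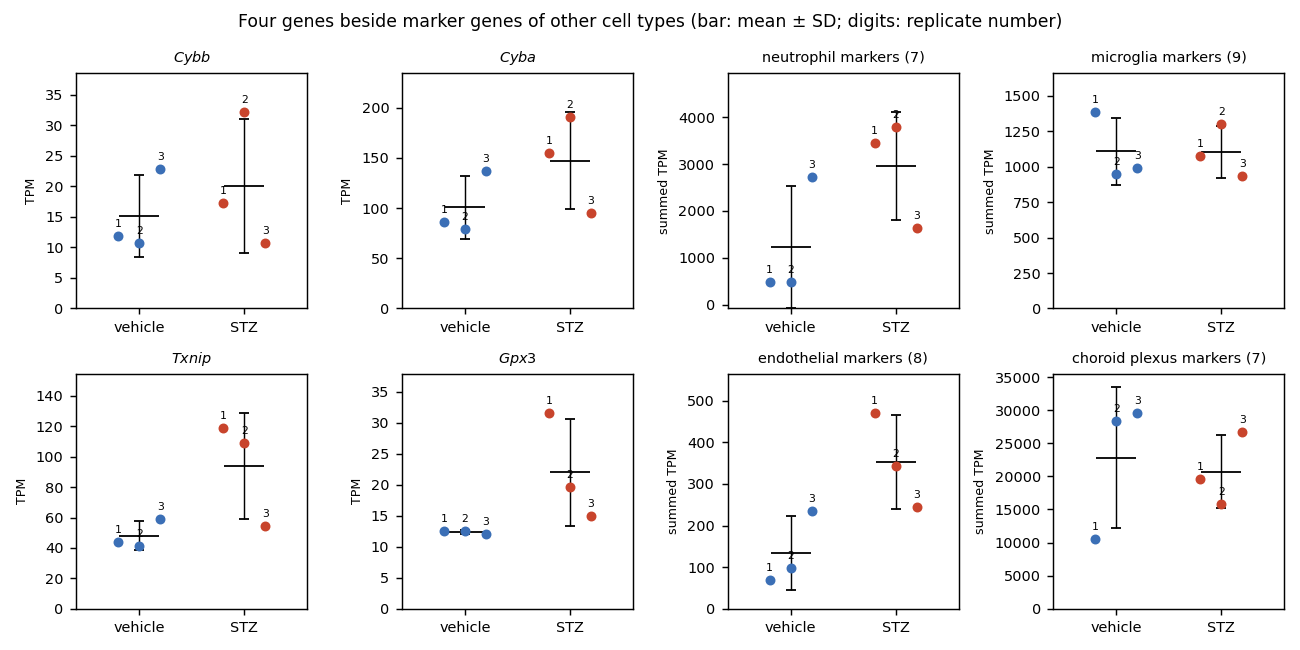
TPM of Cybb, Cyba, Txnip and Gpx3 in each sample beside the summed TPM of 7 neutrophil, 9 microglial, 8 endothelial and 7 choroid plexus markers, with replicate numbers and bars at the group mean ± SD (n = 3). Neutrophil markers run from 482 to 3788 TPM, and vehicle replicate 3 is high and STZ replicate 3 low in its group for Cybb, Cyba, Txnip and the neutrophil markers.

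A further 108 genes of the same pathways were held in 7 lists. Of these 94 were tested, edgeR called 0 and DESeq2 called 1 (1.05% of all genes). At an unadjusted edgeR p under 0.05, 8 were higher and 4 lower in STZ samples, against 11.3% of all genes in either direction, and the median log2 fold change was 0.06. The gene called by DESeq2 was Nnt, the mitochondrial transhydrogenase that makes NADPH, in the list of 23 other thiol redox enzymes (median 0.06). Nnt was 51.3, 63.3 and 55.0 CPM in the vehicle and 35.5, 35.5 and 37.3 CPM in the STZ samples. All STZ samples were lower, with a log2 fold change of -0.65 ± 0.0917 (edgeR adjusted p = 0.138; DESeq2 adjusted p = 4.07e-05). Without vehicle replicate 2 the fold fell under 1.5 (log2 -0.56). Some substrains of C57BL/6 mice carry a deletion within Nnt, the substrain of each pool is not given in the sources used here, and its part in the difference was not tested. Pdia3, a protein disulfide isomerase of the same list, had a log2 fold change of -0.50 ± 0.106 (edgeR adjusted p = 0.227; DESeq2 adjusted p = 0.0049) and was also lower in all STZ samples.

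Among 11 partners and adaptors of NRF2 (median log2 fold change 0.04), Mafg, a small MAF partner, was 131, 116 and 104 CPM in the vehicle and 79.6, 87.5 and 95.9 CPM in the STZ samples, all lower (log2 fold change -0.42 ± 0.107; edgeR adjusted p = 0.288). Maff, another small MAF gene, was at most 0.956 CPM in any sample, with overlapping groups. Of 24 tested genes among 26 other NRF2 targets (median 0.03), Ugt1a6a, a glucuronosyltransferase, was 40.2, 16.6 and 18.2 CPM in the vehicle and 61.5, 47.0 and 47.7 CPM in the STZ samples. All STZ samples were higher, with vehicle replicate 1 high in its group (log2 fold change 1.06 ± 0.328; edgeR adjusted p = 0.334; DESeq2 adjusted p = 0.241). Taldo1, transaldolase of the pentose phosphate pathway, had a log2 fold change of 0.16 (edgeR adjusted p = 0.441).

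Of 16 tested genes among 18 other glutathione transferases (median 0.13), 3 were higher and 1 lower at an unadjusted edgeR p under 0.05, against 11.3% of all genes in either direction. Mgst1, a membrane-bound transferase, was 129, 113 and 132 CPM in the vehicle and 163, 156 and 147 CPM in the STZ samples, all higher (log2 fold change 0.32 ± 0.0832; edgeR adjusted p = 0.298), and Gsto1, an omega class enzyme, had a log2 fold change of 0.26 (edgeR adjusted p = 0.4). Gpx7, the single tested gene of 4 other peroxidases, had a log2 fold change of 0.02. Among 11 genes of glutathione uptake and breakdown (10 tested, median 0.07), Slc25a40 and Ggt6 had the smallest p-values, with log2 fold changes of -0.21 and 0.34 (edgeR adjusted p = 0.523 and 0.564). The 9 tested genes of 15 other oxidase subunits had a median of 0.53, with 0 called by edgeR or DESeq2 and 0 at an unadjusted edgeR p under 0.05. Their 2 smallest p-values belonged to Ncf1 (log2 fold change 0.66 ± 0.328) and Xdh, xanthine dehydrogenase (0.93 ± 0.515), both with overlapping groups.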

How the data were processed

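RNA from tdTomato-positive astrocytes was compared between 3 vehicle and 3 STZ samples, each a pool of 3 mice. Per the submitters' processing notes, the authors used bcl2fastq 2.20.0, Trimmomatic 0.38, HISAT2 2.1.0, SAMtools 1.9 and StringTie 2.1.3b with mm10. The annotation and strand setting are not given in the sources used here, and the labels and methods name different library kits. The authors deposited raw integer read counts for each gene. The TPM values were deposited by the authors and sum to 999946 to 999982 per sample, and their FPKM values were not used. Every measurement column belonged to a mapped sample.

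Genes counted at least once in each of the 6 samples (22337) entered edgeR 4.0.16 under R 4.3.3, with TMM factors, a two-sided quasi-likelihood F test and Benjamini-Hochberg adjustment. The standard error (SE) of a log2 fold change was derived as its absolute value divided by the square root of F. The alternatives were DESeq2 1.42.0, its size factors in edgeR, filterByExpr, no filter on low counts, no minimum fold, the replicate number as a block, each sample left out, and limma 3.58.1 on log2(TPM + 1). The procedures were tested on simulated data. In CPM, 3 counts correspond to 0.0511 to 0.0571, a floor that covers counting error only. The members and lists were chosen with earlier results of these data known. All 38 genes are named. Values by sample are given for Nfe2l2, Keap1, Nqo1, Hmox1 and Txnip, and for genes called by a tool, with an unadjusted edgeR p under 0.05 or with groups that do not overlap; other genes given by sample were picked after their values were seen. In the pathway lists, called genes and the 2 with the smallest p are named. Of 45777 listed genes, 45679 matched RefSeq (GRCm38.p6) by NCBI gene number. Of the 38 genes, 11 overlap another RefSeq gene, so that their reads cannot be assigned with certainty where strand was not used. They are Gclm, Gss, Gsr, Gstm5, Gpx8, Txnrd1, Txnrd2, Txnip, Prdx1, Prdx5 and Cybb.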

Additional observations from a re-analysis of the deposited data

How the results depend on the processing

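With 3 pools per group, edgeR called 0 of the 37 genes in every setting run, with 7 to 11 of them at an unadjusted p under 0.05. DESeq2 called 2, with 11 at an unadjusted p under 0.05, and called 234 genes over the whole table against 5 in edgeR. DESeq2 with each sample left out, chosen after seeing the data, called 0 to 2 of the 37 genes and 121 to 696 of the table, the most without vehicle replicate 3. edgeR with each sample left out called 0 to 1 genes of the table (1704 to 2802 at an unadjusted p under 0.05), and limma on log2(TPM + 1) called 0 (2635). The replicate number as a block called 0 genes in edgeR (1793 at an unadjusted p under 0.05) and, added after seeing the data, 124 in DESeq2 with 0 of the 37 genes. Under that block the DESeq2 adjusted p was 0.568 for Txnip and 0.127 for Gpx3, and DESeq2 called Ugt1a6a (adjusted p = 1.69e-05), which it did not without the block. The samples share only a number: same-numbered samples had deviations that correlated at -0.101, -0.162 and -0.184 across genes, and no sample correlated best with its own number.

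The median log2 fold change of the 37 genes ranged from 0.045 to 0.12 with single samples left out in either tool. Over 12 settings the sign turned for 12 of the 37 genes, none of them called, and for 25 it did not. With single samples left out in edgeR, log2 fold changes ran from -0.034 to 0.084 for Cat, -0.15 to 0.82 for Cybb, -0.11 to 0.0014 for Gclc, -0.24 to 0.074 for Gpx4, -0.26 to 0.086 for Gpx8, -0.14 to 0.036 for Gsta4, -0.10 to 0.032 for Prdx3, -0.23 to 0.10 for Prdx5, -0.10 to 0.011 for Prdx6, -0.0028 to 0.23 for Sesn2, -0.13 to 0.17 for Sod1 and -0.13 to 0.0035 for Txnrd1. Prdx5 also turned to 0.016 in limma and to 0.0036 with the replicate block. The cause was not tested. In the 250 bases before the start alone, 7 of 32 promoters held the antioxidant response element core.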
